A study of Mus musculus with 21 samples.

Results

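The RNA levels of 8 mouse genes linked to cytokine signalling and its feedback were followed in CD4+ T cells given a low or a high dose of their antigen. The genes are 5 members of the suppressor of cytokine signalling (SOCS) family, namely Cish, Socs1, Socs2, Socs3 and Socs5, and the 3 members of the PIM kinase family, Pim1, Pim2 and Pim3. They were selected by name, and Socs4, Socs6 and Socs7 of the SOCS family are among the related genes described further on. All 8 were found by symbol in the deposited table of log2 values and by its identifiers among the 47643 genes of the count table. All 15249 genes of the log2 table have at least 10 counts over all samples, so that genes found there are by construction among the 15300 that pass that filter.

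Cytokines such as IL-2 bind receptors whose associated Janus kinases (JAKs) phosphorylate STAT transcription factors, and the phosphorylated STATs enter the nucleus and switch on target genes. SOCS proteins are among those targets. They dock on phosphorylated receptors or JAKs through an SH2 domain, and a SOCS box recruits a ubiquitin ligase, so that the pathway is damped by its own products. PIM kinases are also STAT targets, need no activating phosphorylation and are set largely by how much of them is made. They phosphorylate proteins of the cell cycle, of survival and of translation.

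The study asked how the strength of T cell receptor (TCR) signalling shapes the early transcriptional response in vivo. Tg4 Tiger Nr4a3-Tocky mice received [4Y] MBP peptide under the skin, without adjuvant, at 0.8 µg or 80 µg, splenic CD4+ T cells were sorted at 4 h, 12 h or 24 h, and untreated mice gave the control, with 3 samples in each of the 7 groups. Every group, the control included, carried the Tg4 transgenic TCR for a myelin basic protein peptide, the Tiger allele that reports Il10 by GFP, and a Timer protein driven by Nr4a3, which is blue when newly made and turns red as it matures. Per the study's methods the sort took Blue+Red- cells at 4 h, Blue+Red+ cells at 12 h and Blue-Red+ cells at 24 h, so time and sorting gate cannot be told apart. Both sexes were used, with littermates of the same sex randomised, and the ages of the mice were not given in the sources used here. The 3 samples of a group are replicates by their labels, the study's methods describe individual immunised mice, and the p-values measure the spread between these samples.

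Library totals ran from 2352800 to 6244279 counts. A single non-coding gene, Gm42418, took between 17.0% and 27.8% of the counts of a library. In every library the 6 T cell markers (Cd3d, Cd3e, Cd3g, Cd4, Cd2 and Cd5) were detected and summed to 579 to 1578 CPM (counts scaled to a common library size of 1000000), against at most 54.8 CPM for 4 B cell markers, 28.2 CPM for 8 myeloid and dendritic cell markers and 51.3 CPM for 4 CD8 T and NK cell markers. Erythroid and platelet markers, 4 genes, reached 155 CPM in a library of the 80 µg 12 h group. Values below are DESeq2 normalised counts, which are counts divided by a size factor per library. They can be compared between samples for a gene, and are not compared here between genes. In bulk samples such as these, fewer cells that express a gene and less RNA per cell cannot be told apart. A gene was called when its adjusted p was under 0.05 and its log2 fold change, shrunk towards 0 where the data are noisy, was beyond 1 in either direction, and "rose", "fell", "higher" and "lower" are used as results only for called differences.

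Since JAK-STAT signalling acts through STAT proteins at promoters, the start sites of the 8 genes were read from RefSeq on GRCm38.p6, from 250 bases before to 50 bases after the start. Of the 8 genes, 6 had an entry, with 7 entries in all because Pim1 had 2. The STAT motif TTCNNNGAA, which reads the same on both strands, was found in 2 of the 6, Cish and Socs3, and in 8.3% of the 32851 promoters of the same table. In Cish it was present at 2 places, beginning at the start site itself (0 bases after it) and 11 bases after it, and in Socs3 at 1 place, 154 bases before it. The stretches that hold it are shown with the motif in capitals, each 5′ to 3′ on the strand of its gene, Cish at chr9:107296654-107296683 on the plus strand and Socs3 at chr11:117969501-117969530 on the minus strand.
Cish: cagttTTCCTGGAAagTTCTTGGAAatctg
Socs3: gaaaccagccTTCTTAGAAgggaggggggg
The AP-1 motif TGANTCA was in none of the 7 entries and in 7.81% of all promoters. The NFAT core GGAAA was in those of Cish, Socs1, Socs3 and 1 of the 2 entries of Pim1, and in 61.3% of all promoters. In Cish it lies in part within the STAT motif. A match is a match of letters in this window and nothing was measured here about binding.

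**Figure D1:**
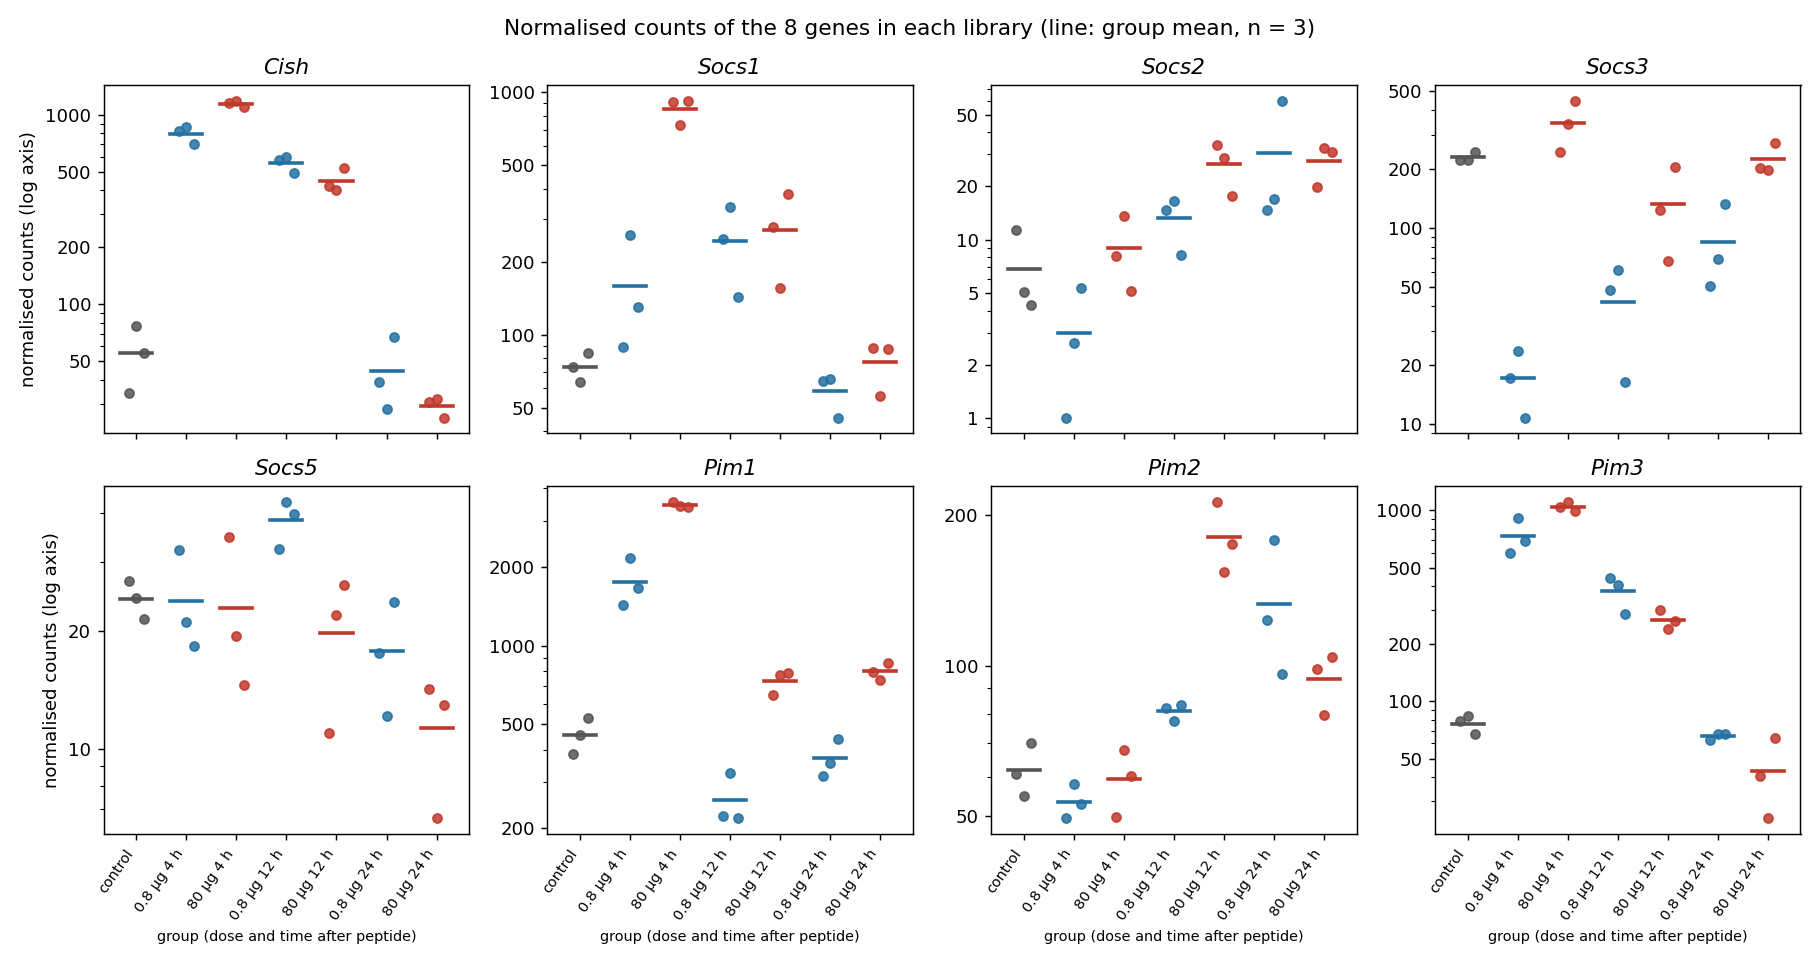
Normalised counts (log axis) of Cish, Socs1, Socs2, Socs3, Socs5, Pim1, Pim2 and Pim3 in each of the 21 libraries, by group in order of time and dose; points are libraries, lines are group means (n = 3), grey is control, blue is 0.8 µg and red is 80 µg. Cish, Pim1 and Pim3 peaked at 4 h at both doses, Socs1 peaked at 4 h at 80 µg, and Socs3 had its lowest mean in the 0.8 µg 4 h group. Pim2 had its highest mean in the 80 µg 12 h group, whose libraries overlapped those of the 0.8 µg 24 h group.

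Cish encodes CIS, the SOCS protein that binds IL-2 and TCR signalling components and limits them. Its gene lies at chr9:107296026-107302784 on the plus strand of GRCm38 in the GENCODE annotation. The RefSeq start site used above, at 107296659, lies within that span. The normalised counts were 34.0, 77.1 and 55.7 in the 3 control libraries. At 4 h they were 823, 858 and 698 after 0.8 µg and 1152, 1186 and 1103 after 80 µg, so that the highest control library was about an order of magnitude below the lowest immunised one. At 12 h the low dose libraries held 579, 601 and 494 and the high dose libraries 420.2, 404 and 522, with an overlap between doses. By 24 h the values were 38.9, 28.0 and 67.1 at the low dose and 30.7, 31.6 and 25.3 at the high dose, and the low dose libraries overlapped the control, with 1 of them below every control library.

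Against control, Cish rose 14.3-fold at 0.8 µg and 20.6-fold at 80 µg at 4 h (ratios of group means), with shrunken log2 fold changes of 3.79 ± 0.20 (SE) and 4.32 ± 0.20 and adjusted p of 6.75e-77 and 1.58e-100. At 12 h it was still 10.04-fold and 8.07-fold above control. Between 12 h and 24 h it fell 12.5-fold at 0.8 µg (log2 fold change -3.61 ± 0.20, adjusted p = 2.77e-67) and 15.4-fold at 80 µg (-3.90 ± 0.21, adjusted p = 1.40e-72). Dose changed it little next to those changes. At 4 h the doses did not overlap and the adjusted p was 0.0161, yet the log2 fold change of 0.53 ± 0.17 was below the threshold, and at 12 h and 24 h the differences were -0.32 (adjusted p = 0.334) and -0.60 (adjusted p = 0.131). The 24 h difference ran from -0.86 to -0.23 when single libraries were left out, with -0.23 without 0.8 µg 24 h replicate 3. At 24 h the 80 µg group was at 29.2 ± 3.44 normalised counts (SD, n = 3) against 55.6 ± 21.5 in control, a log2 fold change of -0.92 with an adjusted p of 0.000544 that was not called. It passed the fold threshold at -1.21 without control replicate 1 and at -1.17 with every library thinned to the smallest total, and was -0.60 without control replicate 2 (adjusted p = 0.0735). Annotated genes on the other strand of Cish, Gm17040 and Gm17041, had 2 and 0 counts over all 21 libraries.

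Socs1 encodes an inhibitor that blocks JAKs directly through a kinase inhibitory region and restrains IFN-γ and IL-2 signalling. It lies at chr16:10782240-10785536 on the minus strand. Control libraries held 73.2, 63.9 and 84.2 normalised counts. At 4 h after 0.8 µg the 3 libraries were spread over 88.8, 257 and 131. After 80 µg they held 912, 732 and 923, all above the other 18 libraries. At 12 h there were 247, 337 and 143 at the low dose and 277, 156 and 380.1 at the high dose, which are intermingled. The 24 h libraries held 64.2, 65.3 and 45.4 at the low dose and 87.7, 55.9 and 87.5 at the high dose, on either side of the control values.

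At 4 h Socs1 was 5.39-fold higher at 80 µg (856 ± 107, SD, n = 3) than at 0.8 µg (159 ± 87.5), with a log2 fold change of 2.35 ± 0.38 and an adjusted p of 2.64e-08. The later differences between doses, 0.15 ± 0.38 at 12 h (adjusted p = 0.913) and 0.38 ± 0.39 at 24 h (adjusted p = 0.703), did not pass. Against control it rose 11.6-fold at 80 µg and 4 h (log2 fold change 3.40, adjusted p = 8.02e-18) and 2.15-fold at 0.8 µg (1.06, adjusted p = 0.0137). The low dose call rested on single libraries, since it was lost without 0.8 µg 4 h replicate 2, the library at 257, where the log2 fold change was 0.57 (adjusted p = 0.214), and without control replicate 2 (0.94, adjusted p = 0.0581). At 12 h it was above control at both doses, 3.29-fold and 3.67-fold. From 4 h to 12 h it fell 3.16-fold at 80 µg (log2 fold change -1.60 ± 0.38, adjusted p = 0.000103). At 0.8 µg that step was 0.59 (adjusted p = 0.216), or 1.11 and called (adjusted p = 0.0109) without 0.8 µg 4 h replicate 2. It then fell at both doses from 12 h to 24 h, 4.16-fold at 0.8 µg and 3.52-fold at 80 µg.

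Socs2 encodes a SOCS protein best known for restraining growth hormone signalling. It lies at chr10:95385362-95417180 on the minus strand. It was sparse, with 1, 2 and 5 raw counts in the 3 libraries of the 0.8 µg 4 h group, and 58 in the highest library of all, 0.8 µg 24 h replicate 3. In normalised counts the control held 11.3, 5.07 and 4.28, and the 80 µg 4 h group 8.10, 13.6 and 5.14, which overlap. At 12 h there were 14.7, 16.5 and 8.22 at the low dose and 33.8, 28.6 and 17.5 at the high dose, with all 3 high dose libraries above all 3 low dose ones. At 24 h the libraries held 14.6, 16.8 and 59.9 at the low dose and 19.7, 32.4 and 30.8 at the high dose.

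Socs2 was above control in 3 groups, 3.86-fold at 80 µg and 12 h (log2 fold change 1.75 ± 0.57, adjusted p = 0.00565), 4.01-fold at 80 µg and 24 h (1.81 ± 0.57, adjusted p = 0.00602) and 4.41-fold at 0.8 µg and 24 h (1.92 ± 0.57, adjusted p = 0.00367). The last of these rested on the library at 59.9, and without it the log2 fold change was 1.05 (adjusted p = 0.156). All 3 ratios to control rest on few counts, since the control libraries held 11, 5 and 3 raw counts. No dose comparison passed, with log2 fold changes of 1.28 ± 0.64 at 4 h (adjusted p = 0.212), 0.93 ± 0.54 at 12 h (adjusted p = 0.401) and -0.11 ± 0.52 at 24 h (adjusted p = 0.952). From 4 h to 12 h it rose at both doses, by a log2 fold change of 1.80 at 0.8 µg (adjusted p = 0.0147) and 1.46 at 80 µg (adjusted p = 0.0232). Either call was lost when certain single libraries were left out, 0.8 µg 4 h replicate 1 or 0.8 µg 12 h replicate 2 for the low dose (adjusted p of 0.0907 and 0.0576), and 80 µg 4 h replicates 1 or 3 or 80 µg 12 h replicates 1 or 2 for the high dose (adjusted p from 0.065 to 0.117). The low dose step from 12 h to 24 h was 1.10 (adjusted p = 0.0854), and was called at 1.37 and 1.33 without 0.8 µg 24 h replicate 1 or 2 respectively. Values that use the sparse 0.8 µg 4 h group depend on the shrinkage. Unshrunken, the dose difference at 4 h was 1.57 and the low dose step from 4 h to 12 h was 2.15.

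Socs3 encodes the inhibitor of gp130 cytokine receptors such as that of IL-6, and like SOCS1 carries a kinase inhibitory region. It lies at chr11:117966079-117970047 on the minus strand in the GENCODE annotation. The RefSeq start site used above, at 117969366, lies within that span, as does the single STAT motif before it. The place of the motif relative to the start thus depends on the annotation. Of the 8 genes it separated the doses most at 4 h. The control libraries held 224, 223 and 244 normalised counts. In the 0.8 µg 4 h group they held 17.2, 23.7 and 10.8, far below every control library, and in the 80 µg 4 h group 244, 341 and 446, at or above the control. At 12 h the low dose libraries were at 48.0, 60.9 and 16.4 and the high dose ones at 124, 68.2 and 204. At 24 h the values were 50.6, 69.9 and 133 at the low dose and 202, 197 and 272 at the high dose. The doses did not overlap at any of the 3 times.

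The 80 µg group exceeded the 0.8 µg group 20.0-fold at 4 h (344 ± 101 against 17.2 ± 6.46), with a log2 fold change of 4.06 ± 0.46 and an adjusted p of 3.82e-16. At 12 h Socs3 was 3.16-fold higher at the high dose (1.55 ± 0.44, adjusted p = 0.0115) and at 24 h 2.65-fold (1.34 ± 0.44, adjusted p = 0.0411). The 12 h call was lost without 0.8 µg 12 h replicate 3 (1.20, adjusted p = 0.0697), without 80 µg 12 h replicate 3 (1.12, adjusted p = 0.157) and when only those 2 groups were fitted (0.62, adjusted p = 0.212). Of the 6 libraries compared at 24 h, leaving out any except 0.8 µg 24 h replicate 3 ended the call there, with log2 fold changes from 1.09 to 1.38 and adjusted p from 0.0853 to 0.213.

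Set against control, Socs3 fell at the low dose, 13.4-fold at 4 h (log2 fold change -3.51 ± 0.46, adjusted p = 3.77e-13), 5.51-fold at 12 h (-2.32 ± 0.44, adjusted p = 7.37e-07) and 2.72-fold at 24 h (-1.37 ± 0.44, adjusted p = 0.00654), the last of which was lost without 0.8 µg 24 h replicate 1 (-1.12, adjusted p = 0.0543). At the high dose no difference from control was called, with values of 0.55 at 4 h (adjusted p = 0.277), -0.76 at 12 h (adjusted p = 0.13) and -0.04 at 24 h (adjusted p = 0.958). The 12 h value was called without 80 µg 12 h replicate 3 (-1.20, adjusted p = 0.0177). Over time, Socs3 moved in opposite directions between 4 h and 12 h at the 2 doses, rising by 1.19 on the log2 scale at 0.8 µg (adjusted p = 0.0303) and falling 2.60-fold at 80 µg (log2 fold change -1.32, adjusted p = 0.0074). The rise was lost without 0.8 µg 4 h replicate 1 or 3 or 0.8 µg 12 h replicate 1 or 2 (adjusted p from 0.0708 to 0.198), and the fall without 80 µg 4 h replicate 3 or 80 µg 12 h replicate 2 (adjusted p of 0.0611 and 0.0517). Steps from 12 h to 24 h were 0.94 at 0.8 µg and 0.73 at 80 µg, not called (adjusted p of 0.0735 and 0.168). They were called at 1.26, 1.20 and 1.17 without 0.8 µg 12 h replicate 2, 0.8 µg 24 h replicate 1 and 80 µg 12 h replicate 3 respectively.

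Socs5 encodes a SOCS protein with a long amino-terminal region that has been tied to IL-4 and EGF receptor signalling. It lies at chr17:87107679-87137839 on the plus strand. It was low and varied least among the SOCS genes, with group means from 11.3 ± 4.08 (SD, n = 3) at 80 µg and 24 h to 38.4 ± 5.43 at 0.8 µg and 12 h, where the libraries held 32.3, 42.9 and 39.9. The control held 26.8, 24.3 and 21.4. The lowest value, 6.62, was in an 80 µg 24 h library whose companions held 14.2 and 12.9. No dose comparison passed (-0.09, -0.92 and -0.63 at 4 h, 12 h and 24 h, adjusted p of 0.956, 0.193 and 0.516). Socs5 was called lower than control at 80 µg and 24 h (2.15-fold, log2 fold change -1.06 ± 0.44, adjusted p = 0.0404), and fell from 12 h to 24 h at 0.8 µg (2.16-fold, -1.07 ± 0.41, adjusted p = 0.025). Neither call was firm. The first was lost in 5 of 6 fits that left out 1 library, all but that without 80 µg 24 h replicate 1 (adjusted p from 0.0545 to 0.188), and in the 2-group fit (adjusted p = 0.0869). The second was lost without 0.8 µg 12 h replicate 2 or 3 or 0.8 µg 24 h replicate 1 or 2 (adjusted p from 0.0619 to 0.129). With every library thinned to the smallest total, both were lost (adjusted p of 0.187 and 0.15).

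Pim1 encodes the founding member of the PIM kinases. It lies at chr17:29490753-29496112 on the plus strand, and Gm26885 on the other strand had 3 counts over all 21 libraries. Control libraries held 384, 455 and 531 normalised counts. At 4 h there were 1426, 2175 and 1667 after the low dose and 3560.2, 3414 and 3394 after the high dose, with all 6 above every other library. At 12 h the low dose libraries held 224, 326 and 218, all below the control, and the high dose ones 648, 771 and 789, all above it. At 24 h the values were 316, 356 and 439 at the low dose and 794, 741 and 859.7 at the high dose. The high dose libraries exceeded the low dose ones without overlap at all 3 times.

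The dose difference in Pim1 was called at 12 h, 2.87-fold (736 ± 77.0 against 256 ± 61.0, log2 fold change 1.504 ± 0.16, adjusted p = 1.07e-18), and at 24 h, 2.16-fold (798 ± 59.4 against 370.4 ± 62.4, 1.10 ± 0.16, adjusted p = 6.29e-10). At 4 h it was 1.97-fold, with a log2 fold change of 0.97 ± 0.15 and an adjusted p of 3.44e-09, just under the fold threshold. That value was past the threshold at 1.16 without 0.8 µg 4 h replicate 2, and the 24 h value was just under it at 1.00 without 0.8 µg 24 h replicate 1. Relative to control Pim1 rose 3.84-fold at 0.8 µg (1.93 ± 0.15, adjusted p = 7.62e-35) and 7.56-fold at 80 µg (2.91 ± 0.15, adjusted p = 2.44e-78) at 4 h. Later differences from control went in opposite directions at the 2 doses and were not called, though their adjusted p were under 0.05 in 3 of 4 cases. At 12 h they were -0.82 at the low dose (adjusted p = 1.48e-06, called at -1.03 without 0.8 µg 12 h replicate 2) and 0.69 at the high dose (adjusted p = 3.25e-05). At 24 h they were -0.30 (adjusted p = 0.133) and 0.80 (adjusted p = 1.66e-06). From 4 h to 12 h Pim1 fell at both doses, 6.86-fold at 0.8 µg (-2.75 ± 0.16, adjusted p = 3.46e-66) and 4.70-fold at 80 µg (-2.22 ± 0.15, adjusted p = 4.35e-47).

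Pim2, on the X chromosome at chrX:7878262-7883432 on the plus strand, encodes a kinase that supports survival and growth of lymphocytes alongside mTOR. It did not share the early peak of its relatives. Control libraries held 60.8, 54.8 and 69.95 normalised counts, and at 4 h the libraries held 49.5, 58.0 and 52.9 at 0.8 µg and 49.8, 67.8 and 60.0 at 80 µg, with overlap among all 3 groups. At 12 h there were 82.3, 77.5 and 83.4 at the low dose and 213, 154 and 175 at the high dose. At 24 h the libraries held 124, 178 and 96.0 at the low dose and 98.6, 79.5 and 104 at the high dose, which overlap.

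High dose Pim2 was 2.23-fold above the low dose at 12 h (181 ± 29.8 against 81.1 ± 3.15, log2 fold change 1.14 ± 0.22, adjusted p = 1.76e-05). In the fit of those 2 groups alone it was 0.97 and so missed the fold threshold (adjusted p = 2.31e-05). Dose differences at 4 h and 24 h were 0.15 (adjusted p = 0.819) and -0.49 (adjusted p = 0.202). With single libraries left out they ran from 0.06 to 0.26 and from -0.67 to -0.22. Against control Pim2 rose 2.92-fold at 80 µg and 12 h (1.53 ± 0.23, adjusted p = 1.84e-10) and 2.14-fold at 0.8 µg and 24 h (1.10 ± 0.23, adjusted p = 2.12e-05). The latter dropped below the fold threshold, to 0.83, without 0.8 µg 24 h replicate 2. From 4 h to 12 h it rose 3.05-fold at 80 µg (1.58 ± 0.23, adjusted p = 5.63e-11). The later step at 80 µg, -0.93 (adjusted p = 7.36e-05), was not called, but passed the fold threshold in the 2-group fit (-1.01) and without 80 µg 12 h replicate 2 (-1.02) or 80 µg 24 h replicate 3 (-1.01).

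Pim3 lies at chr15:88862186-88865726 on the plus strand and encodes the third PIM kinase. Its course was close to that of Cish. The control held 78.3, 83.2 and 67.1 normalised counts. At 4 h there were 598, 910.3 and 686 at the low dose and 1034, 1109.9 and 991 at the high dose, and at 12 h 443, 404 and 285 at the low dose and 300.6, 238 and 261 at the high dose. The 24 h libraries held 62.3, 67.1 and 67.1 at the low dose and 40.5, 24.3 and 64.1 at the high dose, so that every high dose library at 24 h was below every control library.

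Relative to control Pim3 rose 9.60-fold at 0.8 µg (log2 fold change 3.22 ± 0.21, adjusted p = 2.76e-50) and 13.7-fold at 80 µg (3.73 ± 0.21, adjusted p = 7.50e-68) at 4 h, and was 4.95-fold and 3.50-fold higher at 12 h. It fell 3.92-fold from 4 h to 12 h at 80 µg (-1.95 ± 0.19), and then 5.76-fold at 0.8 µg (-2.497 ± 0.21) and 6.20-fold at 80 µg (-2.57 ± 0.22) from 12 h to 24 h. The early step at 0.8 µg, -0.94 ± 0.19 (adjusted p = 7.76e-06), was under the fold threshold and passed it without 0.8 µg 4 h replicate 1 (-1.06) or 0.8 µg 12 h replicate 1 (-1.08). Between doses Pim3 was not called, at 0.51 ± 0.19 at 4 h (adjusted p = 0.0552), -0.50 ± 0.20 at 12 h (adjusted p = 0.117) and -0.58 ± 0.24 at 24 h (adjusted p = 0.144). Leaving out 80 µg 24 h replicate 3 made the 24 h dose difference a call (-1.01, adjusted p = 0.00485), and the same held for the 80 µg 24 h group against control (-1.24 in place of -0.80). Without 80 µg 24 h replicate 2 they were smaller, at -0.27 (adjusted p = 0.652) and -0.49 (adjusted p = 0.0873).

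The levels of each gene were ordered over the 7 groups, and neighbours in that order were checked for overlap between their libraries. For Cish and Pim3 the order was the same, 80 µg 4 h, 0.8 µg 4 h, 0.8 µg 12 h, 80 µg 12 h, control, 0.8 µg 24 h and 80 µg 24 h. In both, both 12 h groups overlapped, as did the last 3 groups with their neighbours, and the other neighbours were separate. The highest mean exceeded the lowest 39.3-fold for Cish and 24.3-fold for Pim3. For Pim1 (13.5-fold) the 80 µg 4 h group was followed by 0.8 µg 4 h, 80 µg 24 h, 80 µg 12 h, control, 0.8 µg 24 h and 0.8 µg 12 h, and the 80 µg groups of 12 h and 24 h overlapped, as did the last 3 groups with their neighbours. Socs1 (14.7-fold) had the 80 µg 4 h group alone at the top, then both 12 h groups and the 0.8 µg 4 h group, each overlapping the next, and then the 24 h groups and control, which overlapped. In Socs3 (20.0-fold) the top group, 80 µg 4 h, stood just clear of control, and below control every neighbour overlapped the next, down to 0.8 µg 4 h. Socs2 had both 24 h groups and the 80 µg 12 h group at the top, overlapping, and 0.8 µg 4 h at the bottom, and no span is given for it since 2 of the 3 libraries of that bottom group held 3 counts or fewer. The spans of Socs5 and Pim2 were 3.41-fold and 3.38-fold, and in Pim2 the top group, 80 µg 12 h, overlapped the next, 0.8 µg 24 h.

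**Figure D2:**
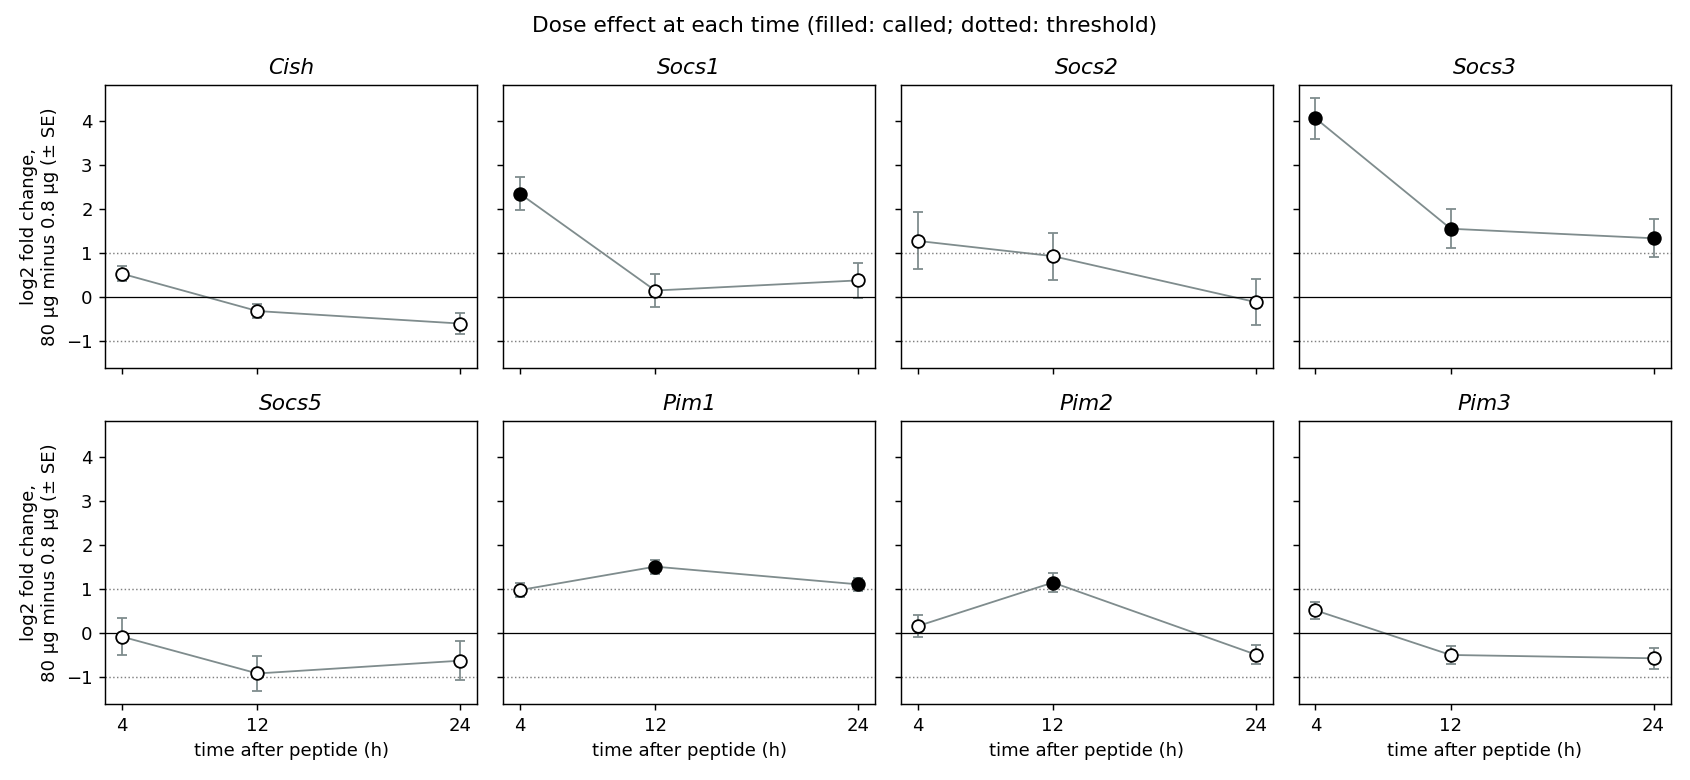
Dose effect, as shrunken log2 fold change of 80 µg minus 0.8 µg with its SE, against time after peptide in hours, for each of the 8 genes; filled points were called and dotted lines mark the threshold of 1 in either direction. Socs3 was called at all 3 times, Socs1 at 4 h, Pim1 at 12 h and 24 h and Pim2 at 12 h, and Cish and Pim3 went from above 0 at 4 h to below 0 at 12 h and 24 h without a call.

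Counted over the 8 genes, the dose comparison gave 2 calls at 4 h (Socs1 and Socs3), 3 at 12 h (Socs3, Pim1 and Pim2) and 2 at 24 h (Socs3 and Pim1), all higher at 80 µg. Of all genes tested at 4 h, 5.85% were called in either direction and 3.12% were called higher. By adjusted p alone 4 of the 8 passed at 4 h, Cish and Pim1 in addition, against 12% of all genes tested. The shares called in either direction and called higher were 2.79% and 1.83% at 12 h and 1.56% and 0.89% at 24 h. The 3 dose comparisons share no samples. The doses did not overlap for 5 of the 8 genes at 4 h, against 28.7% of all genes tested, for 5 at 12 h, against 19%, and for 2 at 24 h, against 22.4%. The median log2 fold change of the 8 was 0.75 at 4 h, 0.54 at 12 h and -0.30 at 24 h, where the median of all genes tested was -0.02, 0.01 and 0.02. The count at 12 h was 1 in place of 3, Pim1, when only those 2 groups were fitted. The count at 24 h ranged from 0 to 2 when single libraries were left out, 0 without 0.8 µg 24 h replicate 1 and 1 without 0.8 µg 24 h replicate 2, 80 µg 24 h replicate 1 or 80 µg 24 h replicate 2.

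Markers of T cells and of other cells moved with dose in part of the comparisons. The study itself reports Cd3g and Cd3e, T cell markers here, as transiently downregulated at 80 µg and 4 h. At 4 h the 6 T cell markers summed to 579 to 680 CPM at 80 µg and 871 to 920 CPM at 0.8 µg, the 4 B cell markers to 7.18 to 10.01 CPM and 10.3 to 24.5 CPM, and the 8 myeloid and dendritic markers to 1.85 to 5.00 CPM, with Itgam, Cd14, Flt3, Xcr1 and Siglech at 0, and 5.74 to 26.1 CPM, with Cd14 and Xcr1 at 0. The T cell markers did not move as one, since by CPM ranges, with no test, Cd3d, Cd3e, Cd3g and Cd4 lay below the 0.8 µg libraries at 80 µg without overlap, Cd2 was at 261 to 314 CPM at 80 µg against 167 to 195 CPM at 0.8 µg, and Cd5 overlapped, at 68.8 to 76.3 CPM against 61.1 to 69.98 CPM. At 12 h the 4 CD8 T and NK markers summed to 13.7 to 22.7 CPM at 80 µg and 43.6 to 51.3 CPM at 0.8 µg, and at 24 h to 21.7 to 28.8 CPM and 36.9 to 45.4 CPM. Cd8a at 12 h was at 0.81 to 1.74 CPM at 80 µg and 14.3 to 17.8 CPM at 0.8 µg. Cd8b1 was at 12.3 to 20.9 CPM and 29.3 to 33.5 CPM, and Ncr1 and Klrb1c reached at most 1.28 CPM in these groups. At 24 h B cell markers were at 4.48 to 9.76 CPM and 10.7 to 20.7 CPM. The part of these markers in the dose differences was not tested.

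Whether the dose effect depended on time was asked of the 18 immunised samples by a likelihood ratio test. An interaction was present at an adjusted p under 0.05 in 5 of the 8 genes, Socs1 (adjusted p = 0.00356), Socs3 (0.00198), Cish (7.87e-05), Pim2 (5.40e-05) and Pim3 (0.00289), where 10.4% of the genes tested passed. The dose effect of Socs1 and Socs3 was largest at 4 h and that of Pim2 at 12 h. Those of Cish and Pim3 were above 0 at 4 h and below 0 later, with no call at any time. Pim1, for which the effect of dose stayed between 0.97 and 1.504, did not pass (adjusted p = 0.195), nor did Socs2 (0.432) or Socs5 (0.689). Tests were tried on 1 simulated data set, and their share of false calls in the real data was not measured. In it 200 genes averaging 50 or more normalised counts differed, only in the 80 µg 4 h group, with the spread set by a formula. There 15.8% of the calls of the likelihood ratio test were false, against a nominal 5%. For the quasi-likelihood test of edgeR the share was 4.08%. That edgeR test called the same 5 genes, with adjusted p from 1.10e-06 to 0.00136. Leaving out the libraries numbered 1 in every group left 1 of the 5, Cish (adjusted p = 0.0333), and leaving out those numbered 2 left 3, with Socs3 (0.0697) and Pim2 (0.0718) lost.

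**Figure D3:**
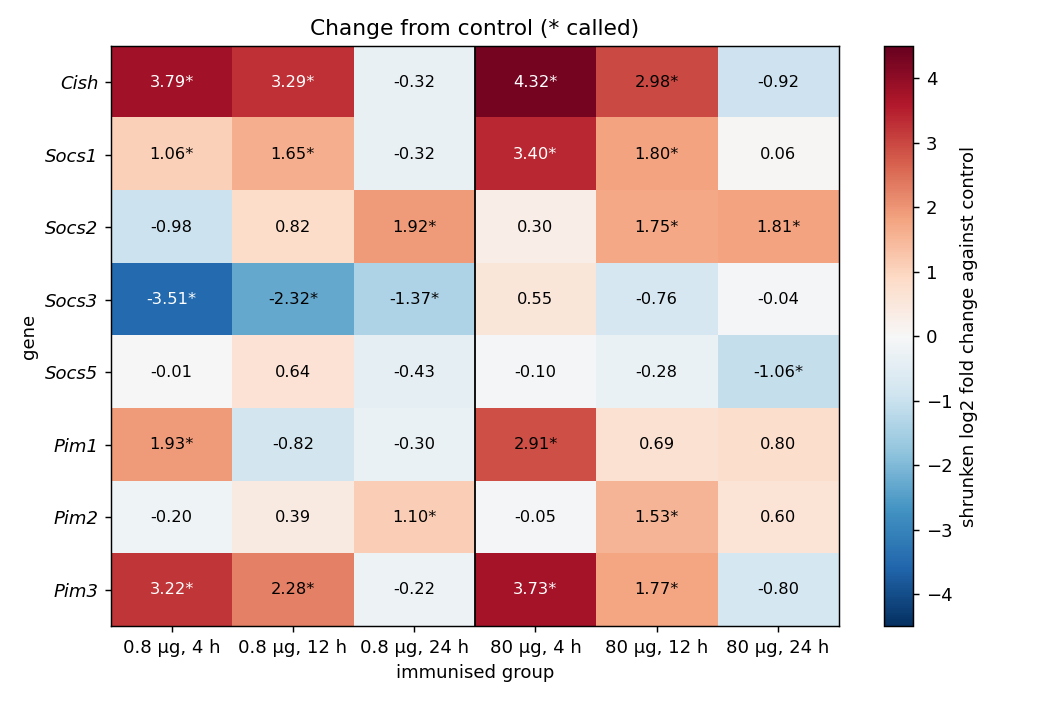
Shrunken log2 fold change of each immunised group against control for the 8 genes, as colour and number; an asterisk marks a call, and the black line separates 0.8 µg from 80 µg. Cish, Socs1 and Pim3 were called higher at 4 h and 12 h at both doses and not at 24 h, and Socs3 was called lower in the 3 low dose groups and in no high dose group.

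The 6 comparisons with the control share the 3 control samples, and each is given on its own. At 4 h Socs1, Cish, Pim1 and Pim3 were called higher at 0.8 µg, and Socs3 was called lower, in a comparison where 17.3% of all genes were called higher and 23.4% lower. The same 4 were called higher at 80 µg and none was called lower (all genes, 18.4% and 25.1%). At 12 h 3 genes were higher (Socs1, Cish and Pim3) and 1 lower (Socs3) at 0.8 µg, against 17.2% and 20.5% of all genes, and 5 were higher (Socs1, Socs2, Cish, Pim2 and Pim3) and none lower at 80 µg, against 17.8% and 20.1%. At 24 h Socs2 and Pim2 were higher and Socs3 lower at 0.8 µg (11.5% and 5.84%), and Socs2 was higher and Socs5 lower at 80 µg (12.3% and 7.91%). In that last comparison 6 of the 8 passed by adjusted p alone, among them Cish, Pim1, Pim2 and Pim3, against 39.1% of all genes. Beside these differences, the summed T cell markers were at 1399 to 1578 CPM in control, above the 579 to 920 CPM of the 4 h and 12 h groups and the 1093 to 1390 CPM of the 24 h groups, and B cell markers were at 24.2 to 54.8 CPM in control, which reached higher than any other group and overlapped only the 0.8 µg groups at 4 h and 12 h, with 7.18 to 10.01 CPM, 1.45 to 12.9 CPM and 4.48 to 9.76 CPM at 80 µg in order of time and 10.7 to 20.7 CPM at 0.8 µg 24 h. The CD8 T and NK markers summed to 32.3 to 49.3 CPM in control, above the 15.2 to 30.9 CPM at 0.8 µg 4 h and above the 3 high dose groups, which lay between 13.7 and 28.8 CPM, and myeloid and dendritic markers to 9.35 to 14.6 CPM, above the 1.85 to 5.00 CPM at 80 µg 4 h. Among the T cell markers, Cd2 at 80 µg 4 h went against the sum, at 261 to 314 CPM and 218 to 253 CPM in control. How the control cells were gated on the Timer was not given in the sources used here. The part of the gate and of these markers in the differences from control was not tested.

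From 4 h to 12 h, 2 of the 8 genes rose (Socs2 and Socs3) and 1 fell (Pim1) at 0.8 µg, where 12.6% and 7.98% of all genes did. By adjusted p alone 6 of the 8 passed there, Cish, Pim2 and Pim3 in addition, against 39.1% of all genes. In turn, at 80 µg 2 rose (Socs2 and Pim2) and 5 fell (Socs1, Socs3, Cish, Pim1 and Pim3), where 15.7% and 9.1% of all genes did. From 12 h to 24 h no member rose at either dose. At 0.8 µg Pim1 (0.52, adjusted p = 0.00395) and Pim2 (0.71, adjusted p = 0.00513) were under the fold threshold. The Pim2 value ran from 0.44 to 0.89 when single libraries were left out. Socs1, Socs5, Cish and Pim3 fell at 0.8 µg, and Socs1, Cish and Pim3 fell at 80 µg, where 9.48% and 10.5% of all genes fell and 17.1% and 16.7% rose. Without 0.8 µg 12 h replicate 2 the number called from 4 h to 12 h at 0.8 µg was 1 in place of 3. Markers also moved with time. At 0.8 µg the T cell markers summed to 871 to 920 CPM at 4 h, 649 to 736 CPM at 12 h and 1093 to 1390 CPM at 24 h, and at 80 µg to 579 to 680 CPM, 665 to 713 CPM and 1276 to 1367 CPM. Their members differed at 80 µg, where the 12 h libraries lay below those of 4 h for Cd2 and Cd5. They lay above them for Cd3d, Cd3e and Cd4, and overlapped them for Cd3g. The CD8 T and NK markers at 0.8 µg went from 15.2 to 30.9 CPM at 4 h to 43.6 to 51.3 CPM at 12 h. Of these, Cd8a went from 1.05 to 1.47 CPM to 14.3 to 17.8 CPM, and Cd8b1 overlapped, at 14.1 to 29.5 CPM and 29.3 to 33.5 CPM. The part of these markers in the changes over time was not tested.

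Genes around the SOCS and PIM proteins in the same pathway were grouped in lists, and their dose comparisons are given as counts. Of all genes tested, 5.85% were called in either direction at 4 h, 2.79% at 12 h and 1.56% at 24 h. Of 7 genes for other SOCS proteins and the ubiquitin ligase that the SOCS box recruits (Socs4, Socs6, Socs7, Elob, Eloc, Cul5 and Rnf7), none was called at 4 h, 12 h or 24 h, and their median log2 fold changes were -0.10, -0.20 and -0.04. Among 11 genes for JAKs and STATs, 2 were higher and 1 lower at 80 µg at 4 h, and none was called later. Stat4, which carries IL-12 signals, was at 49.2 ± 3.54 normalised counts at 80 µg against 5.24 ± 4.46 at 0.8 µg, where the libraries held 10, 1 and 4 raw counts (log2 fold change 2.87 ± 0.38, adjusted p = 1.08e-11). Stat2, of the type I interferon pathway, was at 66.3 ± 13.7 against 26.6 ± 7.21 (1.27 ± 0.28), and Tyk2, a JAK of interferon and IL-12 receptors, was lower, at 50.5 ± 12.4 against 102 ± 21.2 (-1.01 ± 0.25).

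Of 9 genes for other inhibitors of JAK-STAT signalling (PTP phosphatases, PIAS proteins and Sh2b3), 1 was called, Ptpn6, which encodes the phosphatase SHP-1. It was lower at 80 µg at 4 h, at 232 ± 17.9 against 875 ± 141 normalised counts (log2 fold change -1.91 ± 0.13, adjusted p = 3.91e-44), in the comparison in which Socs1 and Socs3 were higher. The list did not move one way. By adjusted p alone 4 of the 9 passed at 4 h, against 12% of all genes tested. Besides Ptpn6 they were Sh2b3 at -0.64 (adjusted p = 0.00255), Ptpn1 at 0.97 (adjusted p = 1.50e-12) and Ptpn2 at 0.79 (adjusted p = 5.28e-08). All but Ptpn6 were under the fold threshold and so not called. By the same rule 6 of 11 JAK and STAT genes passed, 4 with positive and 2 with negative log2 fold changes. So did 10 of the 15 tested cytokine and receptor genes, 9 positive and 1 negative. None of the 7 other SOCS and ubiquitin ligase genes did. Of all genes tested, 3.12%, 1.83% and 0.89% were called higher at 80 µg at 4 h, 12 h and 24 h. Of 19 genes for cytokines and receptors that use JAKs in T cells, 15 were tested. Of these, 9 were higher at 80 µg at 4 h, 4 at 12 h and 2 at 24 h, with 1 lower at 24 h. Those named had few or no counts at the low dose at 4 h, so their raw counts are given and no fold change. Il21 had 197, 95 and 162 counts at 80 µg and 1, 1 and 0 at 0.8 µg, Il12rb2 had 70, 28 and 43 against 1, 1 and 0, and Ifng had 667, 126 and 61 against 7, 4 and 0, with a wide spread at 80 µg. At 12 h Il21 had 218, 339 and 170 counts against 5, 3 and 0, and Il2 (log2 fold change 1.97) and Il12rb2 (1.33) were higher. At 24 h Il21 had 16, 21 and 50 counts against 1, 0 and 1, Il12rb2 had 38, 53 and 84 against 8, 6 and 3, and Ifngr2, a chain of the IFN-γ receptor, was lower (-1.17).

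Among 6 genes for proteins that PIM kinases phosphorylate, Cdkn1a, which encodes the cell cycle inhibitor p21, was higher at 80 µg at each time. Its log2 fold change was 1.72 ± 0.47 at 4 h (adjusted p = 0.00476) and 2.13 ± 0.47 at 12 h (adjusted p = 0.000379). At 24 h it had 14, 21 and 29 raw counts against 3, 2 and 5 at 0.8 µg (adjusted p = 0.0148). No fold change is given there. Cdkn1b, for p27, was lower at 4 h, at 16.1 ± 4.48 against 36.7 ± 6.01 (-1.12 ± 0.29, adjusted p = 0.00187). The other 4, Bad, Cdc25a, Foxo3 and Eif4b, were not called between doses at any time. By adjusted p alone 3 of the 6 passed at 4 h, against 12% of all genes tested. They were Cdkn1a, Cdkn1b and Foxo3 (-0.91, adjusted p = 0.024). At 12 h and 24 h only Cdkn1a passed by that rule.

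**Figure D4:**
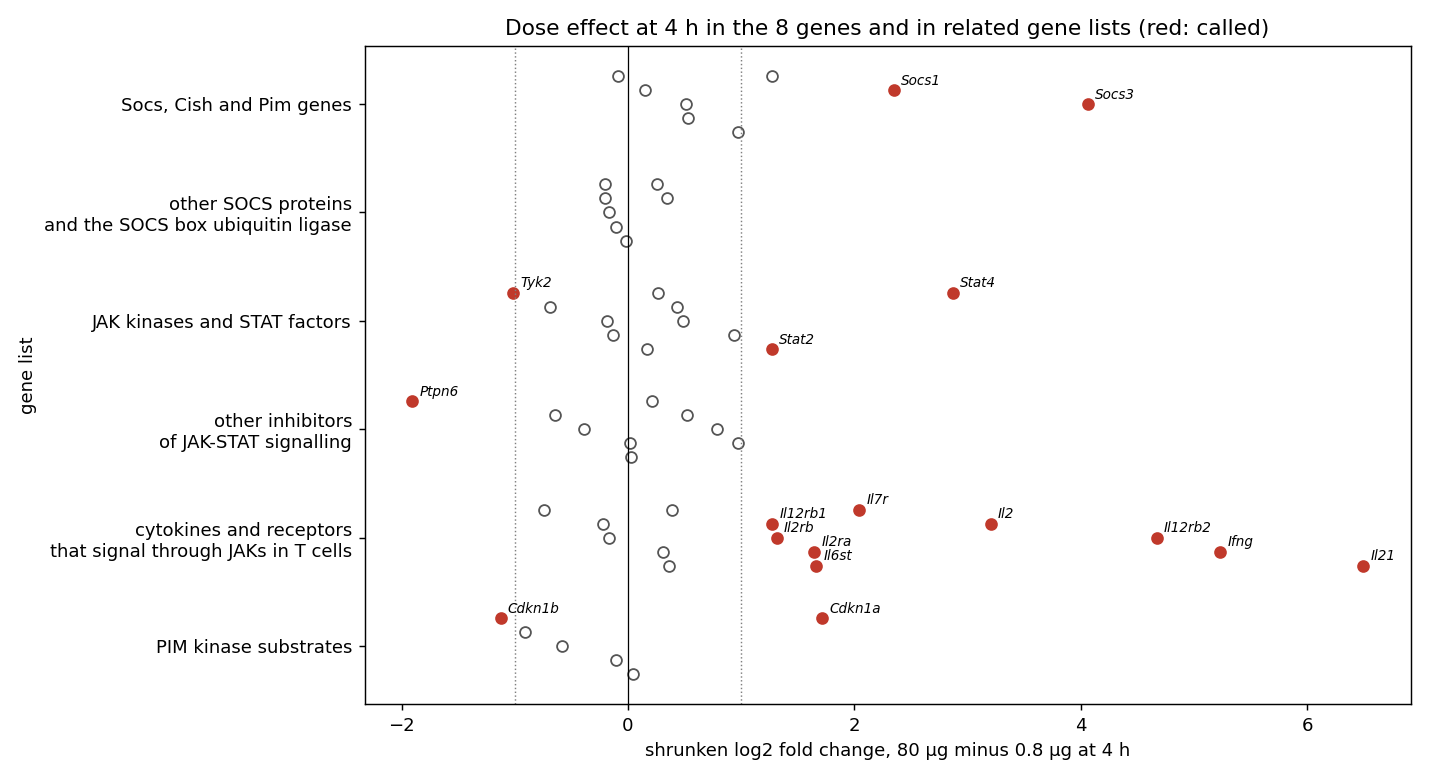
Dose effect at 4 h, as shrunken log2 fold change of 80 µg minus 0.8 µg, for the 8 genes (top) and for related gene lists; each point is a gene, red points were called and are named, and dotted lines mark the threshold. Socs3 (4.06) and Socs1 (2.35) lay beyond every gene of the other SOCS list, none of which was called. In the cytokine and receptor list 9 genes were called higher, against 3.12% of all genes tested. Among the 9, Il21 and Il12rb2 had at most 1 count in any 0.8 µg library, so that their positions depend on the shrinkage.

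Likeness of course was described by Pearson's r over the 7 group means of the deposited log2 values, with no test. The means share libraries and the points are few, so r is high for many genes. Among the 8, Cish and Pim3 were most alike (r = 0.98), followed by Socs2 and Pim2 (0.87), Socs1 and Cish (0.86) and Socs1 and Pim3 (0.85). Socs3 had no r above 0.31 with any of the other 7, and Pim1 was at 0.61 with Socs1 and 0.60 with Pim3. Among 6632 genes averaging 50 or more normalised counts, those with the highest r were Nus1, Polr1b and Cnbp for Cish (0.999, 0.998 and 0.997), Ap1ar, Dph2 and Appbp2 for Pim3 (each 0.997), Ptpn2, Dbt and Crem for Socs1 (0.991, 0.977 and 0.976), and Srgn, Slc25a44 and Slfn2 for Pim1 (0.988, 0.971 and 0.964). For Socs3 they were Abhd17b, Crybg1 and Trib2 (0.968, 0.943 and 0.929), and for Pim2 Abhd17a, Coa3 and Sdr39u1 (0.944, 0.932 and 0.929). For the sparse genes they were Dbnl, Taf12 and Etaa1 for Socs2 (0.983, 0.982 and 0.970) and Casd1, Klc1 and Slc39a11 for Socs5 (0.951, 0.932 and 0.930). Ptpn2, the closest to Socs1, is on the list of other JAK-STAT inhibitors and encodes a phosphatase that acts on JAKs and STATs.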

How the data were processed

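QuantSeq 3' mRNA libraries of 21 samples were analysed, grouped by their labels. To obtain the deposited counts, the authors merged the reads of the lanes, trimmed them with Bbduk, aligned them with STAR 2.5.2a to GRCm38 (mm10) and counted them per gene with HTSeq-count. The annotation release, strand setting and any use of molecular identifiers were not given in the sources used here. The deposited log2 values are the regularised logarithm that the authors computed with DESeq2, and served here for likeness of course and the check of pairing.

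Following the study's methods, these counts went into DESeq2 1.42.0 (R 4.3.3), with at least 10 counts over all samples, 1 model of all 21 samples with a coefficient per group, normal shrinkage, and calls at a Benjamini-Hochberg adjusted p under 0.05 over all genes tested and an absolute log2 fold change above 1. Interaction of dose with time was tested by likelihood ratio over the 18 immunised samples. The tests were checked on simulated counts, in which the likelihood ratio test exceeded its nominal rate of false calls (15.8% against 5%). Alternatives were edgeR 4.0.16, TMM size factors, other filters, unshrunken values, adjusted p alone, 2-group fits, thinning to the smallest library, a replicate block and leaving out libraries. The 8 genes and the gene lists were chosen with earlier results of these data known. Genes named from a list were up to 3 called per time with the largest change and 20 or more normalised counts on average. Some that passed by adjusted p alone were named in addition. The 3 most alike per gene needed 50 normalised counts. Locations are from GENCODE on GRCm38, counted from 1, and start sites from RefSeq. Library size bounds precision, and a gene at 3 counts or fewer in a library was taken as at the floor, which covers counting error only.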

Additional observations from a re-analysis of the deposited data

Results flagged for a closer look

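In 5 of the 8 genes the effect of dose differed between the times by the interaction test, where 10.4% of all genes tested passed. Leaving out the libraries numbered 1 in every group left 1 of the 5, Cish, and leaving out those numbered 2 left 3. The range of the 3 dose effects is given for each of the 5. It is the largest minus the smallest shrunken log2 fold change of 80 µg minus 0.8 µg. It was 2.72 for Socs3, with the largest effect at 4 h and the smallest at 24 h, and 2.20 for Socs1, with the largest at 4 h and the smallest at 12 h. For Pim2 the range was 1.64, from the 12 h effect to one below 0 at 24 h that was not called. Cish had a range of 1.13 and Pim3 of 1.09, in both from an effect above 0 at 4 h to one below 0 at 24 h, none of them called. Times also differ in the sorted Timer gate, and the part of that gate in these ranges cannot be told apart from that of time.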

How the results depend on the processing

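Over the 112 results (8 genes in 13 comparisons and the interaction), settings other than leaving out libraries gave 984 values, of which 955 kept both direction and side of the threshold. Leaving out libraries gave 647 values, of which 565 kept both. The number of genes called moved by over 1.5 times in these cases. With adjusted p alone it was 4 for dose at 4 h, 6 for 80 µg at 24 h against control and 6 for 12 h against 4 h at 0.8 µg. With only the 2 groups compared in the fit it was 1 for dose at 12 h and 1 for 80 µg at 24 h against control. Leaving out single libraries gave 0 to 2 for dose at 24 h, 1 to 2 for 80 µg at 24 h against control and 1 to 4 for 12 h against 4 h at 0.8 µg, and leaving out a replicate number gave 1 to 5 for the interaction. Adjusted p alone drops the fold threshold and the other fits hold fewer samples, and further causes were not tested.

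Direction changed in 34 values of 11 results, none of them called, with main values within 0.30 of 0. In Socs5 at 0.8 µg 4 h against control it did so with TMM size factors (0.0019), edgeR (0.0022), 2 groups (0.0063) and thinning (0.16). Thinning also turned Socs2 (-0.20) and Pim2 (0.0401) at 80 µg 4 h and Socs3 (0.0306) at 80 µg 24 h against control, and the 2-group fit turned Socs2 from 12 h to 24 h at 80 µg (-0.0230). Leaving out single libraries turned further values, over ranges of -0.139 to 0.0684 for Pim2 at 80 µg 4 h, -0.0428 to 0.697 for Socs2 at 80 µg 4 h, -0.48 to 0.14 for Socs5 at 80 µg 4 h, -0.29 to 0.14 for Socs5 at 0.8 µg 4 h, -0.0511 to 0.256 for Socs1 and -0.219 to 0.0319 for Socs3 at 80 µg 24 h (all against control), -0.48 to 0.19 for Socs5 at 4 h, -0.17 to 0.46 for Socs1 at 12 h and -0.38 to 0.80 for Socs2 at 24 h between doses, and, at 80 µg, -0.42 to 0.20 for Socs5 from 4 h to 12 h and -0.12 to 0.27 for Socs2 from 12 h to 24 h. The labels do not say whether the replicate numbers pair the samples, and the check made here cannot exclude it. In 0 of 13 comparisons did every pair of the same number have a correlation of deviations above 0.1 (39 pairs, -0.098 to 0.162), and the replicate block changed 0 of 112 results, with 52 calls in both fits. TMM size factors moved the median of all genes by at most 0.031. Depth limits Socs2, at 1, 2 and 5 raw counts in the 0.8 µg 4 h libraries and 11, 5 and 3 in the control libraries.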
